A study of Nannospalax ehrenbergi and Mus musculus with 25 samples.

Results

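Transcripts of 10 genes of transforming growth factor beta (TGF-beta), activin and bone morphogenetic protein (BMP) signaling were followed in muscle and tumors of the house mouse and of Spalax, a blind mole rat that lives underground. The 10 were chosen by name and are Tgfb1, Tgfb2, Tgfb3, Tgfbr1, Tgfbr2, Inhba, Mstn, Bmp4, Bmp7 and Grem1. All 10 stand in both deposited tables, out of 27988 genes in the Spalax table and 47593 in that of mouse. The animals had received a single injection of the carcinogen 3-methylcholanthrene (3MCA) under the skin of the left neck flank, at 1 mg in Spalax and 200 ug in mouse. In animals with a tumor, IS is the injected side, which holds the tumor, and UIS is neck muscle of the opposite, uninjected side of the same animal. Untreated Spalax control (n = 4, all female) gave uninjected neck muscle. Tolerant Spalax (n = 4, 3 males and 1 female) had been injected 18 or 30 months before, grew no tumor and gave muscle of the injected side. Granuloma was diagnosed in 2 female Spalax, 600 and 976, operated on at 14 and 16 months, and fibrosarcoma in 2240 (female, 18 months) and 2230 (male, 30 months), each with 1 IS and 1 UIS library. The mice were C57BL/6 males, 3 to 4 months old, with 3 untreated controls (M1, M2 and M5) and 3 with a fibrosarcoma (1019, 1023 and 512, at 14, 12 and 11 weeks), again with 1 IS and 1 UIS library each. The Spalax were caught in the wild and were estimated to be between 2 and over 10 years old. With 2 tumors of each diagnosis, the Spalax tumor groups are small. Each library is bulk tissue of 1 animal, in which fewer cells of a type and less RNA per cell cannot be told apart.

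The 25 libraries held between 17025447 and 31179183 counted reads. All values below are the deposited values of a gene in a library, which are its reads divided by 1 size factor per library, and they can be compared between libraries of a species but not between species. A value of 10, the limit for a test, rests on 13.8 to 19.4 reads in IS and on 6.95 to 14.1 in muscle libraries. The labelled tissue was checked against its defining genes. The summed value of 6 muscle fiber genes (Ckm, Acta1, Mb, Tnnt3, Myl1 and Ttn) was at least 975665 in the 12 Spalax muscle libraries and 702210 in the 6 of mouse, against 163 to 4153 in Spalax IS and 162 to 72007 in mouse IS, where 512 was highest. The 6 fibroblast genes summed to between 114152 and 1889378 in Spalax IS and 13293 to 43160 in UIS of the same animals. In mouse these sums were 139354 to 173019 and 4063 to 29282. Among the muscle libraries, tolerant 2251 (fibroblast sum 186754, the other tolerant libraries 7162 to 42602), granuloma UIS 976 (the lowest fiber sum of the UIS libraries, 1009739) and mouse UIS 1019 stood apart. In mouse UIS 1019, the 5 proliferation genes summed to 1316 against 25.9 and 89.7 in the other UIS libraries. The title of UIS 976 gives that animal's number, but its description holds a second library name with a different number, so that every comparison of IS and UIS within 976 rests on the title.

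The members belong to 1 superfamily of secreted dimers and its machinery. The ligands bind pairs of type I and type II serine/threonine kinase receptors, which phosphorylate Smad proteins. TGF-beta, activin and myostatin signal through Smad2 and Smad3, and BMPs through Smad1, Smad5 and Smad9. In muscle, myostatin (Mstn) limits fiber growth, TGF-beta drives fibroblasts to lay down matrix, and BMP signaling opposes atrophy. Gremlin 1 (Grem1) is a secreted protein that binds BMP ligands and keeps them from their receptors.

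The ligands share a cysteine-rich growth factor domain at the end of the precursor, and its last codons show how the members resemble each other. Shown 5′ to 3′ are the final 60 coding bases of the 7 mouse ligand genes, stop codon included, from the longest coding transcript in GENCODE vM21 (GRCm38). Capitals mark the last pair of cysteine codons.
Tgfb1: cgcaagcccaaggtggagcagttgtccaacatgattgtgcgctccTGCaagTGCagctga
Tgfb2: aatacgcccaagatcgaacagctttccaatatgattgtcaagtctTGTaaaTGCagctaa
Tgfb3: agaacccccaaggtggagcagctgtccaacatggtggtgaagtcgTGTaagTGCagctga
Inhba: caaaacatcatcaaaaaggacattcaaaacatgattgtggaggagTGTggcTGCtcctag
Mstn: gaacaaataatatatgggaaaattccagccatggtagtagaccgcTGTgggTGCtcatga
Bmp4: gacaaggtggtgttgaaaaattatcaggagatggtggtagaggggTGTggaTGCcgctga
Bmp7: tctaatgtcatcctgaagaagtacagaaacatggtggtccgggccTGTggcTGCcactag
All 7 end in a cysteine codon, 1 other codon, a second cysteine codon, 1 further codon and the stop. Over the last 113 codons the 3 TGF-beta genes were 68.7% (Tgfb1 and Tgfb2), 73.7% (Tgfb1 and Tgfb3) and 70.8% (Tgfb2 and Tgfb3) identical in their bases. The longest stretch of coding bases shared exactly by any pair of the 10 members was 15 bases. In GRCm38 the members lie on different chromosomes or far apart, for example Tgfb1 on chromosome 7 from 25687002 to 25705077, Grem1 on chromosome 2 from 113746164 to 113758646 and Mstn on chromosome 1 from 53061640 to 53068079. Exons of annotated opposite-strand genes cover 12.4% of the exon bases of Tgfb3, 3.96% of those of Bmp4 and 2.14% of those of Tgfb2, and the strand setting of the counting is not given in the sources used here.

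The first question was how the tumors differed from muscle of the same animals. In both species Grem1 and Inhba were far higher in the tumors, Mstn was nearly lost and Bmp4 was lower, in each of the 7 tumor-bearing animals. Tgfb1 was also higher in all 7 tumors. Tgfb2, Tgfb3 and Bmp7 moved in 1 direction in the 4 Spalax tumors and had no common direction in the 3 of mouse, which alone does not show that the species differ. With limma on log2(value + 1), and a call where the p-value adjusted by Benjamini-Hochberg did not exceed 0.05, 8 of the 10 members differed between the 4 Spalax IS and the 4 UIS libraries, 5 higher and 3 lower, where 52.6% of all 14431 genes tested were called (26.1% higher and 26.5% lower). In mouse 6 of 10 were called, 4 higher and 2 lower, against 45.1% of 15220 genes (22.8% higher and 22.3% lower). The groups did not overlap for 8 of 10 members in Spalax (50.0% of all genes tested) and for 6 of 10 in mouse (60.2%). These counts lay near the background in mouse. The members were chosen with earlier results of these data known, so no excess over the background can be read from the counts in either species. Taken by diagnosis, each from 2 against 2 libraries, 4 members were higher and 1 lower in granuloma (24.3% of all genes called, 11.7% higher and 12.6% lower). In fibrosarcoma 2 were higher and 2 lower (36.3% of all genes called, 17.4% higher and 19.0% lower). Leaving out 1 library of a diagnosis leaves 1 library in a group, so the calls by diagnosis could not be checked in this way. Without UIS 976 the granuloma differences were 1.93 (Tgfb1), 3.33 (Tgfb3), 4.34 (Inhba), -6.70 (Mstn), -2.86 (Bmp4), 2.56 (Bmp7) and 6.42 (Grem1). Over both diagnoses, the calls of Bmp7 and Tgfbr2 were the ones that changed when 1 of the 8 libraries was left out. The median log2 fold change of the members was 1.29 in Spalax and 0.27 in mouse, beside 0.01 and 0.11 over all genes tested.

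**Figure D1:**
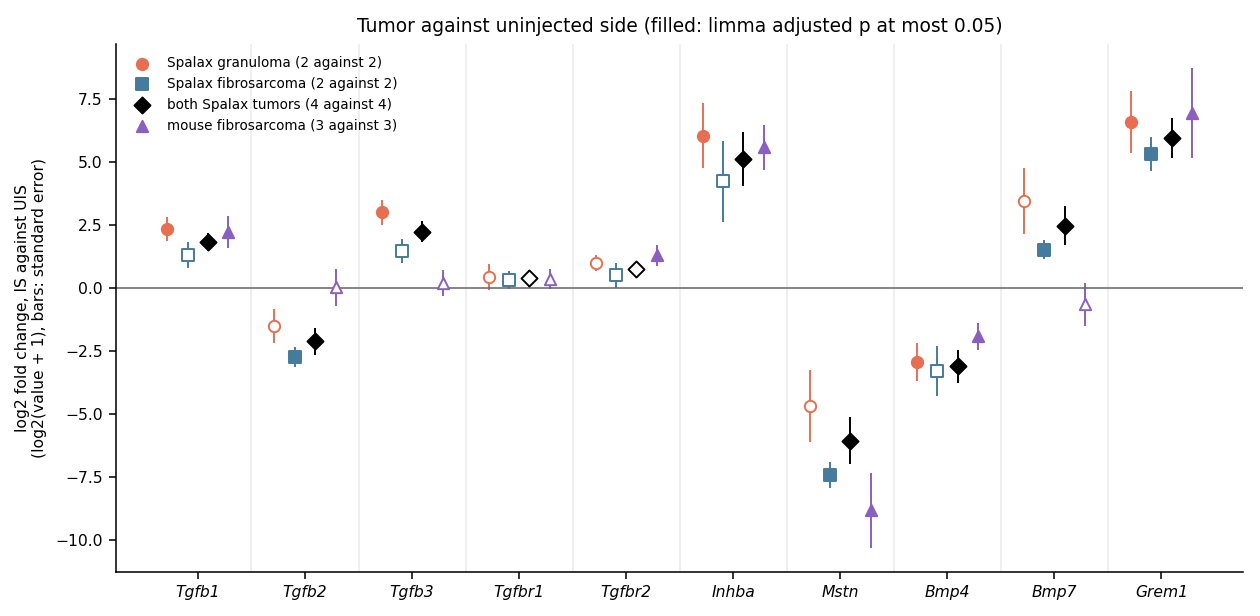
Log2 fold change of each member between IS and UIS with its standard error (bars), for Spalax granuloma, Spalax fibrosarcoma, both Spalax diagnoses pooled, and mouse; filled symbols mark an adjusted p of at most 0.05. Grem1 and Inhba lie between 4.23 and 6.96 in all 4 comparisons and Mstn between -8.81 and -4.68, while Tgfb2 and Tgfb3 lie at 0.03 and 0.19 in mouse.

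Tgfb1, the most widely produced TGF-beta ligand, had values of 616 and 698 in granuloma IS and 678 (2230) and 283 (2240) in fibrosarcoma IS, against 171, 95.4, 173 and 182 in the UIS libraries of 600, 976, 2230 and 2240. The lowest tumor lay above the highest UIS library, but 2240 lay within the range of the untreated controls (161 to 350). Tolerant muscle 2251, at 1324, was above every Spalax tumor. Against UIS, Tgfb1 rose by 1.82 on the log2 scale over both diagnoses (SE 0.36, limma adjusted p 0.00247, n = 4 against 4). By diagnosis it rose by 2.35 in granuloma (SE 0.48, limma adjusted p 0.0264), and in fibrosarcoma the difference was 1.30 (SE 0.51, adjusted p 0.111). In mouse Tgfb1 was 1030, 985 and 544 in IS of 1019, 1023 and 512, and 349, 221 and 69.1 in their UIS. It rose there by 2.22 (SE 0.63, limma adjusted p 0.0282, n = 3 against 3), a call lost without IS 1019, UIS 1023 or IS 1023 (adjusted p 0.0598 to 0.0897). The within-animal difference of Tgfb1 was positive in 7 of 7 animals and ranged from 0.63 to 2.96.

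Tgfb3 is a ligand known from wound repair and palate fusion. Its values were 879 and 1692 in granuloma IS (600 and 976) and 365 and 811 in fibrosarcoma IS (2230 and 2240), against 121, 188, 202 and 188 in UIS. All 4 tumors lay above all 4 UIS libraries, but 2230 lay below tolerant muscle 2218 and 2251 (484 and 563). Against UIS, Tgfb3 rose by 2.24 over both diagnoses (SE 0.43, limma adjusted p 0.00203) and by 3.01 in granuloma (SE 0.50, adjusted p 0.0171). Its difference in fibrosarcoma was 1.48 (SE 0.47, limma adjusted p 0.0701). In mouse Tgfb3 was 650, 530 and 1841 in IS and 1056, 644 and 628 in UIS of 1019, 1023 and 512. These groups overlapped, only 512 was higher in its tumor, and the difference was 0.19 (SE 0.51, limma adjusted p 0.783).

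Tgfb2, which like Tgfb1 and Tgfb3 is secreted in a latent complex and is known from heart and eye development, went the other way in Spalax. It stood at 197 and 79.8 in granuloma IS and at 43.2 and 33.2 in fibrosarcoma IS, against 246, 521, 274 and 240 in UIS. The 4 tumors were all lower than the 4 UIS libraries, and both fibrosarcomas lower than both granulomas. Tgfb2 fell by 2.12 over both diagnoses (SE 0.55, limma adjusted p 0.0103), and in fibrosarcoma it fell by 2.73 (SE 0.40, adjusted p 0.0119). In granuloma the difference was -1.50 (SE 0.68, adjusted p 0.157). In mouse the 3 tumors had Tgfb2 values of 104, 310 and 808, around those of UIS (378, 199 and 325). The mouse difference was 0.03 (SE 0.74, limma adjusted p 0.977), with 1019 lower and 1023 and 512 higher in the tumor.

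The receptor genes moved less. Tgfbr1, the type I kinase receptor of TGF-beta, had values of 306, 584, 454 and 634 in IS of 600, 976, 2230 and 2240 and of 394, 244, 353 and 532 in their UIS, and the groups overlapped. Its differences were 0.38 over both Spalax diagnoses (SE 0.32, limma adjusted p 0.348) and 0.36 in mouse (SE 0.39, adjusted p 0.49), which became 1.15 and 1.42, both called (adjusted p 0.0172 and 0.0123), when libraries were scaled by total reads. Tgfbr2, the type II receptor that binds the ligand first, was 3451, 2983, 3508 and 1380 in Spalax IS and 1471, 1775, 1524 and 1569 in UIS. Here 3 of 4 tumors were higher and 2240 was lower than its UIS. The pooled difference of Tgfbr2 was 0.75 (SE 0.30, limma adjusted p 0.061). It was called without IS 2240 (1.06, adjusted p 0.00168), by edgeR (0.88, adjusted p 0.0327), by DESeq2 (0.84, adjusted p 0.0225) and with total reads (1.52, adjusted p 0.00191). In mouse Tgfbr2 stood at 4878, 5711 and 2088 in IS and 1633, 1858 and 1289 in UIS, with no overlap, and rose by 1.30 (SE 0.41, limma adjusted p 0.0421). That call was lost with no filter (adjusted p 0.0568). It held when IS 512 was left out and was lost without each of the other 5 libraries, namely UIS 1019, IS 1019, UIS 1023, IS 1023 and UIS 512 (differences of 1.02 to 1.42, adjusted p 0.0797 to 0.132).

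Inhba encodes the beta A subunit that forms activin A. It was at or near the detection limit in UIS, with values of 9.65, 0, 2.84 and 6.06 in 600, 976, 2230 and 2240, and reached 143, 321, 19.2 and 470 in their tumors. The lowest tumor, 2230, was still above all UIS libraries, but it lay below tolerant muscle 2251 at 70.6. Inhba rose by 5.14 over both diagnoses (SE 1.07, limma adjusted p 0.0032) and by 6.05 in granuloma (SE 1.30, adjusted p 0.0296), a call lost by edgeR (adjusted p 0.0543) and with a pseudocount of 0.1 (0.0647). In fibrosarcoma the difference was 4.23 (SE 1.61, adjusted p 0.105), and with the animal as a block it was called (adjusted p 0.0376). In mouse Inhba was 163, 595 and 80.5 in IS against 8.46, 2.06 and 1.44 in UIS of 1019, 1023 and 512. It rose by 5.59 (SE 0.89, limma adjusted p 0.00479), a call that held without each of the 6 libraries in turn.

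Mstn, the growth inhibitor made by muscle fibers, showed the deepest loss. Its UIS values in Spalax were 991 (600), 58.9 (976), 1471 (2230) and 925 (2240), and its tumor values were 13.1, 5.44, 7.80 and 4.30. UIS 976 held far less Mstn than the other 11 muscle libraries of Spalax, the next lowest being tolerant 2251 at 317. Mstn fell by 6.05 over both diagnoses (SE 0.94, limma adjusted p 0.000626), and in fibrosarcoma it fell by 7.42 (SE 0.51, adjusted p 0.00296). In granuloma the difference was -4.68 (SE 1.43, adjusted p 0.0677), called with the animal as a block (adjusted p 0.0306). Without UIS 976 it was -6.70 and without UIS 600 -2.65, while the pooled difference without UIS 976 was -7.10 (limma adjusted p 1.56e-05). In mouse Mstn was 1613, 1743 and 8442 in UIS of 1019, 1023 and 512 and 0, 3.56 and 56.3 in IS. It fell by 8.81 (SE 1.49, limma adjusted p 0.0057), and in 1019, where no read was counted in the tumor, it was at least 1040-fold lower when set against a floor of 3 reads in that library. The muscle fiber sums given above were, like Mstn, lower in every tumor than in every muscle library of the species. Among the tumors, 512 had the most of both in mouse and 600 in Spalax. Below the highest, the order differed in Spalax, where 2230 had the lowest fiber sum (163) but more Mstn than 976 and 2240. Among muscle libraries, UIS 976 and tolerant 2251 had like fiber sums (1009739 and 975665) with Mstn at 58.9 and 317. The part of fiber content in the loss of Mstn was not tested.

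Bmp4, a ligand of the BMP branch, fell in the tumors of both species. In Spalax its values were 62.4, 19.3, 5.40 and 40.6 in IS of 600, 976, 2230 and 2240 and 260, 287, 145 and 171 in UIS. The highest tumor lay below the lowest of all 12 Spalax muscle libraries, 128 in control 2095. Bmp4 fell by 3.11 over both diagnoses (SE 0.67, limma adjusted p 0.00402). By diagnosis it fell by 2.93 in granuloma (SE 0.74, adjusted p 0.0426; 0.0502 with the animal as a block, 0.0603 by edgeR, 0.0613 with no filter), and the difference was -3.28 in fibrosarcoma (SE 1.00, adjusted p 0.0633; 0.0375 with the block). In mouse Bmp4 was 46.5, 46.3 and 15.8 in IS and 95.5, 168 and 125 in UIS. It fell by 1.92 (SE 0.55, limma adjusted p 0.0299), and that call was lost when UIS 1023, IS 1023, UIS 512 or IS 512 was left out (adjusted p 0.0509 to 0.103). Scaled by total reads, the mouse difference of Bmp4 was -0.88 (adjusted p 0.236).

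Bmp7, another BMP ligand known from kidney and bone, was called in Spalax and not in mouse. In Spalax it stood at 90 (600) and 1012 (976) in granuloma IS and at 199 (2230) and 261 (2240) in fibrosarcoma IS, against 50.6, 14.1, 85.3 and 72.7 in UIS. Each tumor was above all UIS libraries, but 600 was below all 4 untreated controls (125 to 204) and 2230 lay within their range. Bmp7 rose by 2.48 over both diagnoses (SE 0.78, limma adjusted p 0.0243), a call lost with the animal as a block (adjusted p 0.0588) and without IS 976 or UIS 976 (differences of 1.83 and 1.93, adjusted p 0.0561 and 0.0537). It rose by 1.52 in fibrosarcoma (SE 0.38, adjusted p 0.04; 0.0774 with the block, 0.0505 with no filter, 0.296 in 1 model over all libraries). The difference in granuloma was 3.44 (SE 1.31, adjusted p 0.112), but 1.70 without IS 976, 2.56 without UIS 976, 4.33 without UIS 600 and 5.18 without IS 600. In mouse Bmp7 was low throughout, with 17.6, 8.30 and 1.05 in IS and 10.9, 8.25 and 11.5 in UIS of 1019, 1023 and 512. The mouse difference was -0.65 (SE 0.84, limma adjusted p 0.556), and its sign turned when libraries were scaled by total reads (0.25) or IS 512 was left out (0.24).

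Grem1, the BMP antagonist, was far higher in the tumors, and its log2 fold change was above that of the other members in all 4 tumor comparisons with a pseudocount of 1. With a pseudocount of 0.1 that of Inhba was larger in granuloma (7.76 against 6.87), and within animals Inhba rose more than Grem1 in 976, 2240 and 1019. Its UIS values in Spalax were 4.82, 3.53, 8.53 and 24.2 in 600, 976, 2230 and 2240, and its tumor values 1670, 147, 844 and 451. None of the 12 Spalax muscle libraries exceeded 24.2. Grem1 rose by 5.96 over both diagnoses (SE 0.79, limma adjusted p 0.000275), by 6.60 in granuloma (SE 1.24, adjusted p 0.0217) and by 5.32 in fibrosarcoma (SE 0.67, adjusted p 0.00849). The granuloma value ranged from 4.85 without IS 600 to 8.34 without IS 976. In mouse Grem1 was 4645, 8391 and 1918 in IS of 1019, 1023 and 512 and 693, 7.22 and 5.76 in UIS. The UIS library of 1019 held far more Grem1 than the other UIS libraries. It also had the highest proliferation sum and the highest fibroblast sum of the 3 (29282 against 9958 and 4063). The mouse controls had fibroblast sums of 22517 to 56643 and proliferation sums of 37.2 to 95.0, with Grem1 at 0.815 to 5.67. Mouse Grem1 rose by 6.96 (SE 1.78, limma adjusted p 0.0207), and by 9.14 without UIS 1019 (adjusted p 0.00164). The call was lost without IS 1019, UIS 1023, IS 1023 or UIS 512 (differences of 5.80 to 6.89, adjusted p 0.0581 to 0.0705) and with edgeR on recovered reads (4.37, adjusted p 0.0956). The part of the fibroblast and proliferating cells in the Grem1 values was not tested.

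**Figure D2:**
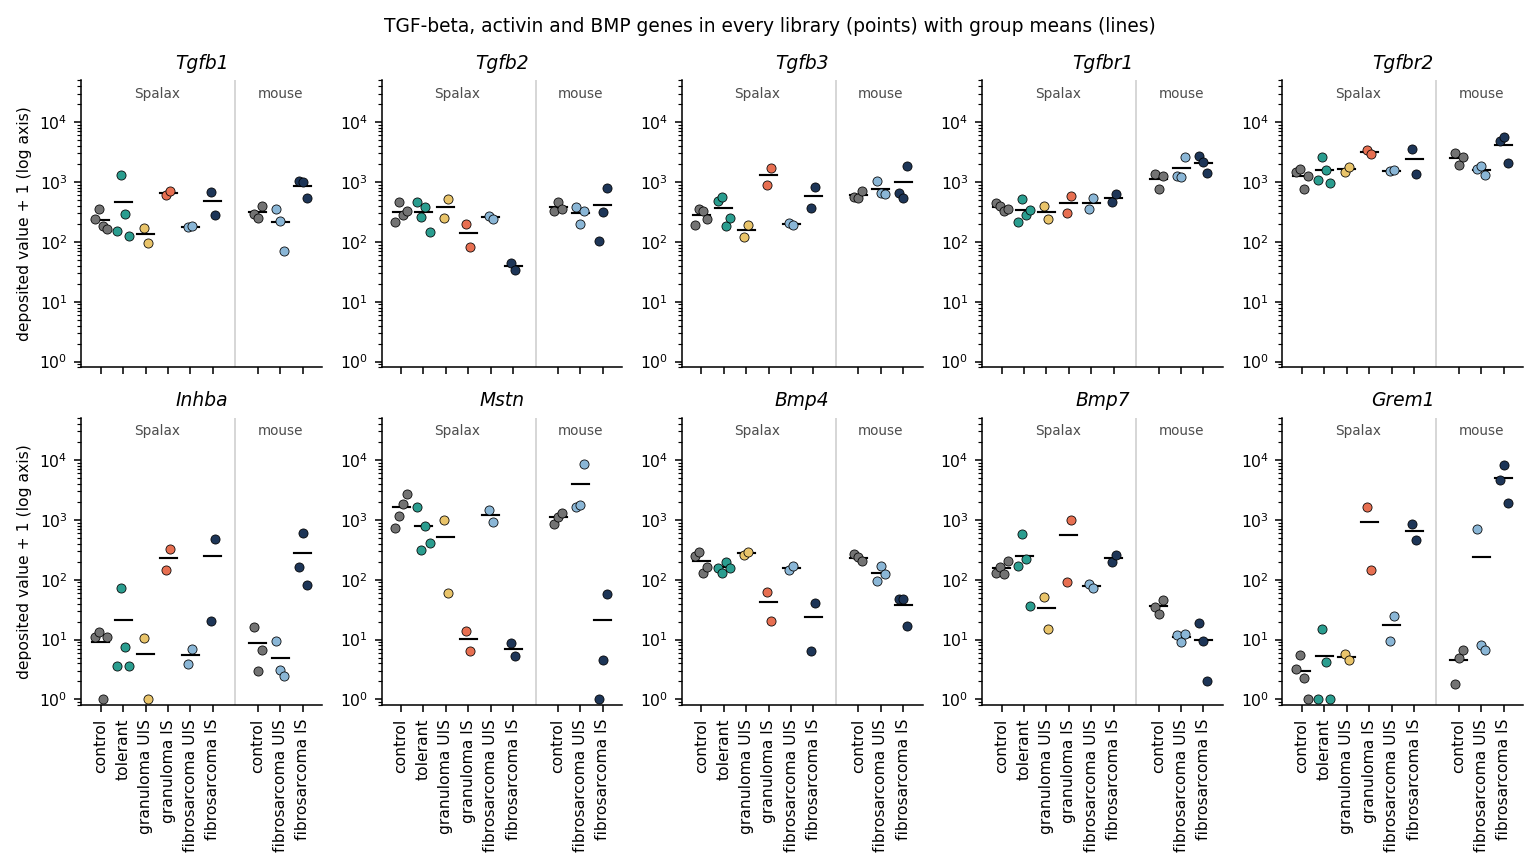
Value + 1 of each member (log axis) in all 25 libraries, by group, with Spalax left and mouse right of the line in each panel; points are libraries and lines are group means. Grem1 is high in IS, as is Inhba save in 2230, which lies below tolerant 2251. Mstn and Bmp4 are low in IS, and Bmp7 in mouse stays at or under 45.4.

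Because Grem1 binds BMP4, their proportion was also computed within each library. In Spalax, on the scale of deposited values and not per length, Grem1 over Bmp4 was 26.7, 7.62, 156 and 11.1 in IS of 600, 976, 2230 and 2240, and 0.0185, 0.0123, 0.0588 and 0.142 in their UIS. In mouse, per kb of exon, the ratio of Grem1 to Bmp4 was 54.1, 98.3 and 65.8 in IS of 1019, 1023 and 512. In their UIS it was 3.93, 0.0233 and 0.0249. In each of the 7 animals the ratio was higher in the tumor than in UIS. Per kb in mouse, it was above 1 in every tumor and, among the UIS libraries, in 1019 alone. The Spalax ratios are not per length, so a ratio of 1 there does not mark equal levels.

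The levels of different members were compared per length in mouse, where exon lengths are known. In untreated mouse muscle Mstn was highest, at 407 ± 82.6 per kb (SD, n = 3), followed by Tgfbr2 (310 ± 68.4), Tgfb3 (179 ± 29.0) and Tgfbr1 (171 ± 47.6). The intervals of 1 SD overlapped between Mstn and Tgfbr2 and between Tgfb3 and Tgfbr1. Bmp4 followed at 104 ± 14.0 per kb, then Tgfb2 at 65.3 ± 12.1 and Tgfb1 at 62.0 ± 13.9, whose intervals overlapped. Bmp7 (8.70 ± 2.42), Inhba (1.21 ± 1.09) and Grem1 (0.844 ± 0.595) were lowest, and the last pair overlapped. In the mouse tumors the order was led by Grem1 at 1202 ± 784 per kb (SD, n = 3), before Tgfbr2 (516 ± 232), Tgfbr1 (319 ± 99.1) and Tgfb3 (298 ± 214), each overlapping with its neighbour. Tgfb1 followed at 169 ± 53.2 per kb, then Tgfb2 (70.3 ± 62.6), Inhba (43.8 ± 43.2), Bmp4 (16.1 ± 7.86), Mstn (7.38 ± 11.7) and Bmp7 (2.23 ± 2.06), again with overlap between neighbours. Grem1 thus went from the last to the first place among the members.

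**Figure D3:**
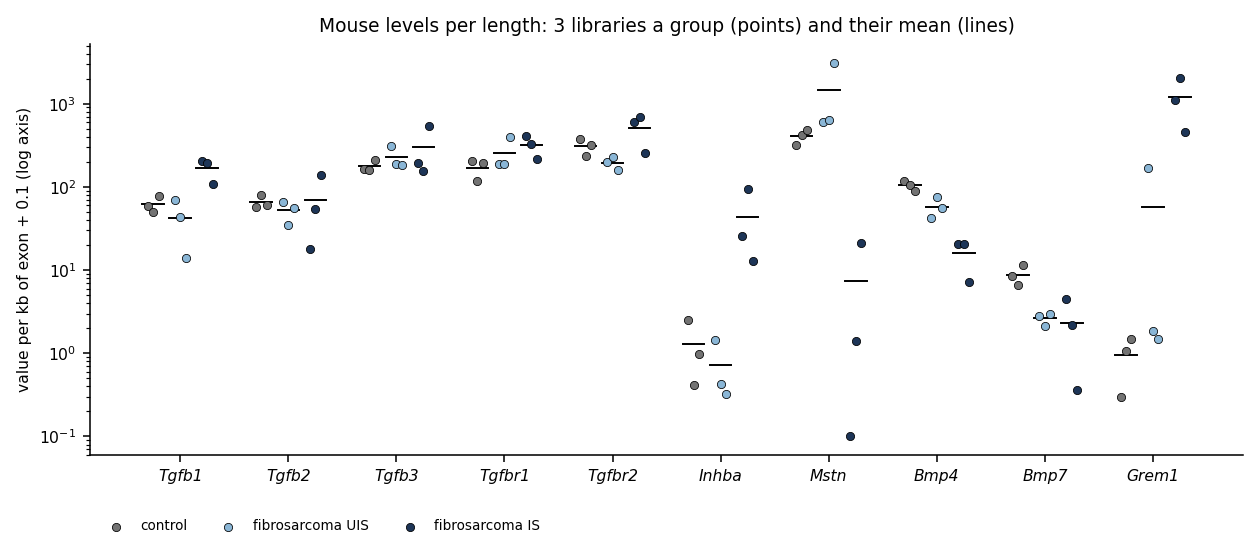
Value per kb of exon + 0.1 (log axis) of each member in mouse control, UIS and IS; points are 3 libraries a group and lines their mean. Mstn leads the controls at 407 per kb and Grem1 leads the tumors at 1202 per kb.

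Next, it was asked whether the tumor response itself differed between diagnoses or species, by an interaction term. Between fibrosarcoma and granuloma, 0 of 15584 genes were called by limma, 766 had an unadjusted p under 0.05, edgeR called 0 and DESeq2 88, and no member was called by any of the 3 (0 of 10; background 0%). The smallest unadjusted limma p among the members was that of Tgfb3 (difference of -1.53, SE 0.73, p 0.0719, adjusted p 0.946). Between Spalax fibrosarcoma and mouse, over 11262 genes with the same symbol, limma called 445 genes (3.95%) and 0 of 10 members. The difference closest to a call was that of Tgfb2 at -2.76 (SE 1.04, unadjusted p 0.0261, adjusted p 0.166). DESeq2 called Tgfb2 (-3.17, adjusted p 0.0229), as did limma without mouse IS 1019 (-3.51, adjusted p 0.0489), and over all other alternatives its adjusted p was 0.053 to 0.405. For Bmp7 the interaction was 2.17 (SE 1.21, adjusted p 0.337) and for Tgfb3 1.29 (SE 0.79, adjusted p 0.384). This interaction used the fibrosarcomas, and the 4 Spalax tumors together were not tested against mouse.

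The muscle groups were compared to ask whether tissue away from a tumor, or muscle that resisted the carcinogen, differed from untreated muscle. Between Spalax UIS and control limma called 0 of 13909 genes (0%), with 2315 at an unadjusted p under 0.05, 0 calls by edgeR and 516 by DESeq2. Of the members, 8 passed the filter and 0 were called by any of these tools, with Inhba and Grem1 too low to be tested. Bmp7 came closest. Its control values were 128, 162, 125 and 204 and its UIS values 14.1, 50.6, 72.7 and 85.3, a difference of -1.69 (SE 0.52, unadjusted p 0.00873, limma adjusted p 0.216). It was the 1 member whose groups did not overlap, as was true of 12.7% of all genes tested (6.2% lower), and without UIS 976 its difference was -1.14 (adjusted p 0.137). Mstn was 737, 1157, 1864 and 2699 in control and overlapped with UIS.

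Mouse UIS and control gave a like picture. Limma called 0 of 14792 genes (0%), with 1621 at an unadjusted p under 0.05, 0 by edgeR and 342 by DESeq2, and 0 members by any of them. Again Bmp7 was lower in UIS (10.9, 8.25 and 11.5) than in control (33.4, 26.1 and 45.4), by -1.66 (SE 0.45, unadjusted p 0.0069, limma adjusted p 0.39). Bmp4 (control 263, 237 and 201) and Tgfbr2 (control 3052, 1942 and 2627) were also lower in UIS without overlap, and Mstn (control 867, 1126 and 1312) was higher without overlap. The 4 members without overlap, 1 higher and 3 lower, stand beside 21.2% of all genes tested (9.53% higher and 11.7% lower). The 5 fat genes summed to between 116456 and 176894 in the mouse controls and between 6277 and 83682 in UIS. Their part in these differences was not tested. In both species the labels list 2 index sequences for control and tolerant libraries and 1 for those of tumor-bearing animals, so that library construction and tumor bearing cannot be told apart.

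Tolerant muscle was compared with control in Spalax. Limma called 0 of 14020 genes (0%), with 733 at an unadjusted p under 0.05, 0 by edgeR and 60 by DESeq2, and again 0 members. No member's groups were without overlap, against 3.86% of all genes. The tolerant animals were mostly male and had been injected on the sampled side, the controls were female and had not, and these cannot be told apart from tolerance. Mstn had the smallest p of the members, at 1661 (2218), 317 (2251), 780 (2261) and 405 (2375) in tolerant muscle, a difference of -1.17 (SE 0.54, unadjusted p 0.0577, limma adjusted p 0.923). Library 2251 stood apart in several members at once. It held Tgfb1 at 1324 against 122 to 287 in the other tolerant libraries, Bmp7 at 580 against 34.8 to 220, Inhba at 70.6 against 2.64 to 6.57 and Tgfbr2 at 2600 against 969 to 1600. Grem1, at 14.3, was far below the tumors, and Bmp4, at 131, was within the range of muscle. Without 2251 the difference from control turned from 0.37 to -0.36 for Tgfb1, from 0.14 to -0.46 for Bmp7 and from 0.22 to -0.06 for Tgfbr2, and that of Mstn was -0.83. In 2251 the fibroblast sum was 186754, and the 4 macrophage genes found summed to 11541 against 842 to 3190 in the other tolerant libraries. The 4 epidermis genes found summed to 3359 against 754 to 1213, the 5 T cell genes to 135 against 6.61 to 37.2, and its fiber sum was the lowest of the 12 muscle libraries (975665). Their part in its values was not tested.

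The members were set beside the rest of the pathway, 64 further genes in 12 roles, of which 63 are in the Spalax table. In both Spalax diagnoses 59 were tested, 16 were higher and 9 lower in IS, beside 26.1% higher and 26.5% lower over all genes. In mouse 63 were tested with 17 higher and 6 lower, beside 22.8% and 22.3%. Both totals were below the shares called over all genes, 52.6% and 45.1%. The median log2 fold change of these genes was 0.36 in Spalax and 0.35 in mouse. Of the 9 genes for latency and activation of TGF-beta, 4 were higher and 1 lower in Spalax and 4 higher and 0 lower in mouse. Direction aside, these totals were near the shares over all genes. The higher calls lay above the shares called higher and the lower calls below those called lower, in a list of 9 genes that was not tested as a set. Of 7 TGF-beta response genes, 3 rose in mouse (Col1a1, Fn1 and Tgfbi) and 4 were not called, and the same 3 rose in Spalax. Ctgf, a matricellular response gene named here after its values were seen, fell by 1.81 in fibrosarcoma (SE 0.36, limma adjusted p 0.0234) and differed by -1.12 over both diagnoses (adjusted p 0.0926) and 0.56 in mouse (adjusted p 0.489). Of 5 BMP response genes, Id2 rose while Id1 and Hey1 fell in Spalax, and Id2 rose and Id1 fell in mouse. The 5 endothelial genes summed to between 2953 and 4524 in Spalax IS and between 7910 and 9262 in UIS. In mouse these sums were 9180, 2438 and 1450 in IS of 1019, 1023 and 512 and 8141, 12935 and 7142 in UIS. Their part in the changes of BMP response genes, Eng and Smad6 was not tested. None of the 4 BMP receptor genes was called in either species. BMP antagonists besides Grem1 numbered 8, with 2 higher in Spalax and 1 in mouse, and 0 lower. Among the 6 Smad genes that pass on the signal, 2 were higher and 0 lower in each species. The 2 activin and myostatin inhibitors held 1 higher call in each species. Of 8 negative regulators, the inhibitory Smad genes Smad6 and Smad7 fell in Spalax, and in mouse Smad6 fell while Skil and Smurf1 rose.

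**Figure D4:**
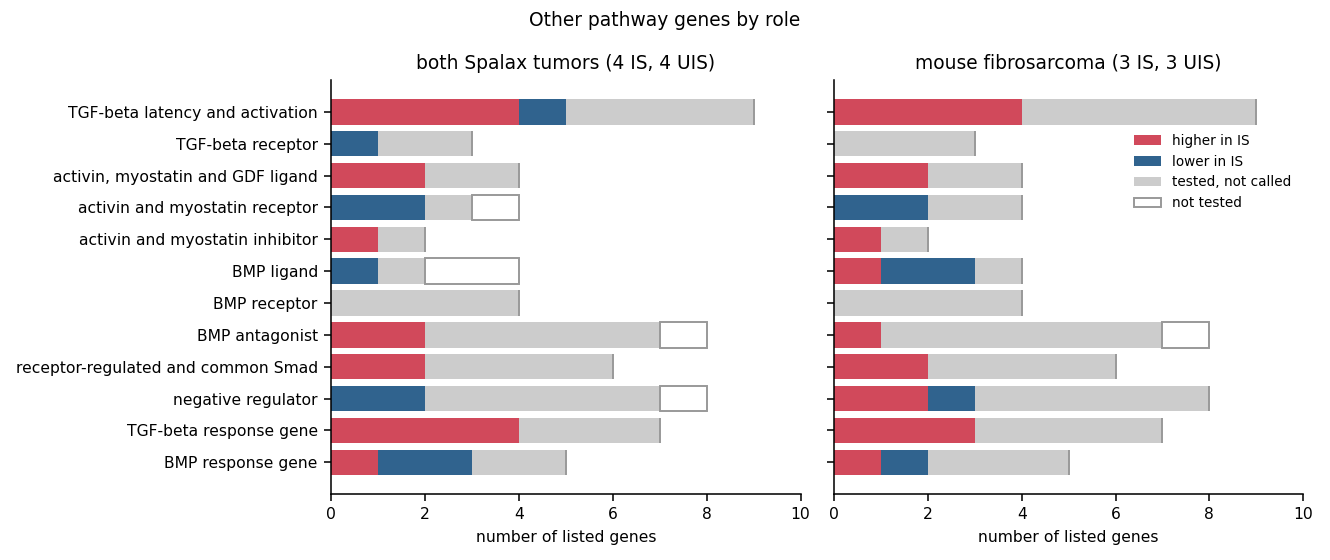
Number of the other pathway genes in each role that were higher in IS, lower in IS, tested without a call, or not tested, for both Spalax diagnoses (left) and mouse (right). The 9 latency and activation genes hold 4 of the 16 higher calls in Spalax and 4 of the 17 in mouse.

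Among these genes, 3 rose in granuloma, fibrosarcoma and mouse alike. Ltbp1, which tethers latent TGF-beta to the matrix, was between 1084 and 4683 in the 7 tumors and between 240 and 822 in UIS, with differences of 2.66, 2.36 and 3.46 (SE 0.66, 0.63 and 0.49, limma adjusted p 0.0409, 0.0456 and 0.00346). Tgfbi, a matrix protein named for its induction by TGF-beta, was between 3396 and 12615 in the tumors and 186 to 1707 in UIS. Its differences were 3.12, 2.68 and 3.41 (SE 0.38, 0.29 and 0.81, limma adjusted p 0.00912, 0.0062 and 0.0162). Col1a1, the main chain of type I collagen, rose by 9.15 (granuloma), 4.67 (fibrosarcoma) and 5.64 (mouse; SE 0.66, 0.77 and 1.23, limma adjusted p 0.00492, 0.0151 and 0.0122), up to a value of 677303 in granuloma IS 600. It is also in the fibroblast list. No gene of the pathway was called in opposite directions in any pair of these comparisons. Limma on the groups compared, with no library left out, called none of the 74 in either interaction. DESeq2 called Col1a1 in that between diagnoses (adjusted p 0.00729) and, besides Tgfb2, several genes in that between species, among them Gdf15 (adjusted p 0.00179) and Itgb6 (adjusted p 0.00873).

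The largest rises and falls added 4 genes. Gdf15, a stress-induced ligand, rose by 5.62 in fibrosarcoma (SE 0.84, limma adjusted p 0.0121), from 7.11 and 1.21 in UIS to 287 and 149 in IS. In mouse Gdf15 was 4.65, 21.4 and 14.2 in IS and 9.67, 4.13 and 10.1 in UIS of 1019, 1023 and 512, a difference of 0.55 (SE 0.68, adjusted p 0.53). The interaction for Gdf15 was 5.06 (SE 1.23, adjusted p 0.0588). Itgb6, a subunit of the integrin that activates latent TGF-beta, fell by 8.72 in fibrosarcoma (SE 0.56, adjusted p 0.00251), from 985 and 1600 to 3.00 and 1.23. Its UIS value in 976 was 35.3 against 2404 in 600. In mouse Itgb6 was 4.65, 7.71 and 406 in IS and 1063, 486 and 115 in UIS of 1019, 1023 and 512. It thus fell in 1019 and 1023 and rose in 512, and the mouse difference of -3.85 was not called. Acvr2b, the type II receptor of activin and myostatin, fell by 4.96 in granuloma (SE 0.71, adjusted p 0.0123), and in mouse it fell by 2.09 (SE 0.53, adjusted p 0.0201), with a difference of -2.98 in fibrosarcoma (SE 1.23, adjusted p 0.124). Acvr1c, a type I receptor, fell by 5.34 in mouse (SE 0.61, adjusted p 0.00216) and was at or under 1.42 in every library of the tumor-bearing Spalax.

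For the 4 members with the widest range, the genes with the most alike pattern were sought over all libraries of a species. The libraries share their tumor or muscle identity, and the correlations of log2(value + 1) are a description. Over the 16 Spalax libraries they were Atp10d, Elk3 and Treml2 for Inhba (r 0.953, 0.946 and 0.944), Gpd1, Armc2 and Mief2 for Mstn (0.989, 0.985 and 0.984), Glipr2, Tmem37 and Lfng for Bmp7 (0.901, 0.894 and 0.882), and Gja1, Cask and Cenpu for Grem1 (0.979, 0.969 and 0.961). Over the 9 mouse libraries they were Mroh2a, Sipa1l3 and Glis3 for Inhba (0.994, 0.989 and 0.989) and Prob1, Kbtbd12 and Prkaa2 for Mstn (0.997, 0.996 and 0.996). For Bmp7 they were Ppl, Sepp1 and Kif26a (0.992, 0.953 and 0.951), and for Grem1 Dusp9, Nefm and Pbk (0.992, 0.988 and 0.986). None of the genes listed in Spalax was listed for the same member in mouse.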

How the data were processed

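Strand-specific libraries were read from a single end by the authors. Trimmomatic cleaned the reads, TopHat placed them on the Spalax genome or on a mouse genome of NCBI, and htseq-count gave counts per gene. The submitters' processing notes list TopHat 1.4.1, HTSeq, DESeq and the build GRCm38. The deposited values are thus a signal, each gene's count over the size factor of its library. In the Spalax table the lower-case t of 2387 gene names is a comma, so other entries, namely pieces of names, stand in the first deposited columns of those lines; the t was restored and values were read from the line end. Whole reads were recovered by dividing by the value of 1 read, which left 100% of values within 0.0001 of a whole number in each library. Reads carry no molecular identifiers, so floors cover counting error only.

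Groups were taken from the labels and compared with limma 3.58.1 under R 4.3.3 (lmFit, eBayes with trend) on log2(value + 1), keeping a gene if its value reached 10 in a number of libraries equal to the size of the smaller group, fitted across the whole table without covariates, with Benjamini-Hochberg adjustment. On that scale the fold change of a low gene is understated. Between species, genes needed a value of 10 in 2 libraries of each. The alternatives were edgeR 4.0.16 and DESeq2 1.42.0 on recovered reads, scaling by total reads, a pseudocount of 0.1, no filter, 1 model over all libraries, each library left out, and the animal as a block. IS and UIS of an animal carry its number, from which the pairing comes, and their deviations from the group means correlated at -0.0 to 0.18. The tests were also run on simulated counts. Their spread was set and not taken from these libraries, so that run does not measure the error rates here. Libraries of a group were not copies of each other (chi-square per degree of freedom at least 48.1). Mouse positions and lengths are from GENCODE vM21.

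The named genes are the 10 members; of 64 other pathway genes those called alike in granuloma, fibrosarcoma and mouse, in opposite directions, or in an interaction, and the largest called rise and fall of each tumor comparison; and for Inhba, Mstn, Bmp7 and Grem1 the 3 genes with the highest Pearson r. The result of 1 listed pathway gene is not reported here. The members and lists were chosen with earlier results of these data known. Figures were drawn with matplotlib 3.10.9.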

Additional observations from a re-analysis of the deposited data

Results flagged for a closer look

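In untreated Spalax muscle, Inhba had a value of 0 in control 2095, with no read counted, against 9.94 to 12.6 in the other 3 controls, so that on the log2(value + 1) scale 2095 lay far from the others for a group of 4 libraries. Of 20 such groups examined on that scale (10 members in control and in tolerant muscle) this was the 1 that stood out, and chance alone marks about 1 in 20. On the deposited values, a scale added after seeing the data, control 2095 did not stand out, and tolerant 2251 did for Tgfb1 (1323.5 against 122 to 287) and Inhba (70.6 against 2.64 to 6.57).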

How the results depend on the processing

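Scaling by total reads raised the median log2 difference of all genes by 0.73 in granuloma, 0.80 in fibrosarcoma, 0.77 over both diagnoses and 1.06 in mouse, and the share of higher calls from between 47.8% and 50.5% to between 75.0% and 81.9%. Bmp7 in mouse was the 1 member whose sign turned in a tumor comparison (0.25, less than that shift), and Bmp4 lost its calls in granuloma (adjusted p 0.0674) and mouse (0.236), as did Tgfb2 over both diagnoses (0.0503). The number of members called moved by over 1.5 times from 5 to 3 (edgeR) and 8 (1 model over all libraries) in granuloma, from 4 to 8 (DESeq2) in fibrosarcoma, and from 0 to 1 (DESeq2) in the interaction between species. With each library left out in turn the number ranged from 7 to 9 over both diagnoses and 2 to 5 in mouse. In the interaction between species it was 0 to 1. For granuloma and fibrosarcoma alone such a fit leaves 1 library in a group, so the calls there could not be checked in this way. With the animal as a replicate block the members called were 5, 5, 7 and 6 in granuloma, fibrosarcoma, both diagnoses and mouse, and 0 in both interactions; it changed no member's call other than those of Bmp4, Bmp7, Inhba and Mstn given with their values, and the genes called in the interaction between species went from 445 to 58. Signs that turned without 1 library were those of Tgfbr1 in granuloma (-0.02 to 0.91), Tgfbr2 in fibrosarcoma (-0.16 to 1.18), Tgfb2 (-0.69 to 0.78), Tgfb3 (-0.36 to 0.54) and Bmp7 (-1.35 to 0.24) in mouse, and, in tolerant muscle without 2251, Tgfb1 (over all left-out libraries -0.36 to 0.79) and Bmp7 (-0.46 to 0.88). On recovered reads edgeR called 2978, 5096, 7652 and 6572 genes in granuloma, fibrosarcoma, both diagnoses and mouse. All genes called by DESeq2 numbered 5383 in granuloma (limma 3581), 6358 in fibrosarcoma (limma 5339) and 1751 between species (limma 445). In 1 model over all libraries limma called 6314 in granuloma and 1228 between species. DESeq2 gave no adjusted p for Mstn in mouse. Depth limits Inhba and Grem1 in muscle, whose values there are mostly under 20. It also limits mouse Bmp7 in UIS (8.25 to 11.5), while the mouse controls held Bmp7 at 26.1 to 45.4.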
